A study of Rattus norvegicus with 6 samples.

Results

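Krüppel-like factors are transcription factors that bind CACCC and GC-rich sites through zinc fingers at the end of the protein. The 10 genes described here are Klf2, Klf3, Klf4, Klf5, Klf6, Klf9, Klf10, Klf11, Klf13 and Klf15. The probes were chosen by accession: every non-control probe whose RefSeq accession belongs to one of these rat genes was taken, and the erythroid Klf1 was left out of the set. This gave 19 probes for all 10 genes, among 15284 genes with a named probe on the array. The family was picked with the differences between the groups already known, so these differences are given as a description with no p-value, and counts of members past a threshold stand only beside the share of all features.

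The arrays were 1-colour Agilent oligonucleotide arrays of total RNA from the renal cortex of 6 male Sprague-Dawley (Crl:CD(SD)) rats, which were 5 weeks old at purchase. For 4 weeks, 3 rats received corn oil, the vehicle, and the other 3 received o-nitroanisole, a nitroaromatic compound, at 400 mg/kg/day. The labels count 3 animals in each treatment and 1 array per replicate number. The 75th percentile of the signal lay between 904.9 and 1041.0 units, and 66.4% to 71.5% of the probes other than controls passed the scanner's test for signal well above background. All 8 proximal tubule markers tested, among them Lrp2 and Slc34a1, were well above background on all arrays. The corn oil arrays were all on slide 1 and the o-nitroanisole arrays all on slide 2, so slide and treatment cannot be told apart in anything below.

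In the kidney these factors sit at different places and answer different signals. Klf2 and Klf4 are flow-induced factors of endothelium, and Klf4 and Klf6 also act in epithelial cells and podocytes. Klf5 is a growth-related factor of epithelia that include the collecting duct. Klf10 and Klf11 were named as early genes of transforming growth factor beta, and Klf9 and Klf15 are induced by glucocorticoids and follow the daily rhythm. Klf3 and Klf13 are more widely expressed, and Klf3 represses genes through the corepressor Ctbp.

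The promoter table of RefSeq (build GRCr8, 250 bases before to 50 bases after each start) held 7 of the 10 genes, with no entry for Klf2, Klf10 and Klf13. Among these 7, the window of Klf5, the gene with the largest difference, and those of Klf9 and Klf15, the glucocorticoid-induced members, are shown; the last pair was chosen after the values were seen. They are read 5′ to 3′ on the strand of the gene. Klf5 lies at chr15:82471831-82472130 (plus strand), Klf9 at chr1:230126396-230126695 (plus strand) and Klf15 at chr4:124522765-124523064 (plus strand), and capitals mark the letters CACCC on either strand, the core that Klf proteins bind.
Klf5: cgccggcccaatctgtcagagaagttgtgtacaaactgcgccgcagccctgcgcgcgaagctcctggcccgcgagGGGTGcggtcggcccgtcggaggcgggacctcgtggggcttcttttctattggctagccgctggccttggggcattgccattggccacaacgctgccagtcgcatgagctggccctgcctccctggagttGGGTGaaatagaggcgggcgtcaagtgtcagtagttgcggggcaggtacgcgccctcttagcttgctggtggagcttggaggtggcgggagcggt
Klf9: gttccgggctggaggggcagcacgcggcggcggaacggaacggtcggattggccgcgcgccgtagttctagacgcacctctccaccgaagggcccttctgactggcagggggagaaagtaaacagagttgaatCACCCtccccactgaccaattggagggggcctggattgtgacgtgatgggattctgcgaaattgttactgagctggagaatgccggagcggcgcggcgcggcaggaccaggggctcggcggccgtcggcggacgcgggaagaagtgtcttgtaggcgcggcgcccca
Klf15: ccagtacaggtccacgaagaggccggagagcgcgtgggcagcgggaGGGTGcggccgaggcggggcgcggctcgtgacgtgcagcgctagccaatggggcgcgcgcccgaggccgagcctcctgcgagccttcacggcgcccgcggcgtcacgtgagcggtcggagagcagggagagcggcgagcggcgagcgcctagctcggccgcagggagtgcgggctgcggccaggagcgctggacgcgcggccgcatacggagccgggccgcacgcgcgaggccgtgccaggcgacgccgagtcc

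CACCC occurred on either strand in 4 of the 7 Klf windows (57.1%) and in 54.9% of all 33469 promoter windows of the table. It occurred in the windows of Klf3, Klf5, Klf9 and Klf15. The E-box CACGTG, the letters that clock factors recognise, occurred in the windows of Klf6, Klf11 and Klf15 (42.9%, against 6.42% of all windows). GCGTG, the core of the aryl hydrocarbon receptor element, occurred on either strand in 5 of 7 (71.4%, against 29.7%), and the GC box GGGCGG in 3 of 7 (42.9%, against 33.1%). AGAACA, a hexamer bound by the glucocorticoid receptor, was in 0 of 7 windows (20.7% of all windows), and the cyclic AMP element TGACGTCA in 0 of 7 (1.83%). The Klf windows ranged from 45.0% to 77.3% in GC content, with a median of 51.7% over all windows, and how far base composition sets these shares was not tested. A match is only a match of letters in this window.

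Levels below are on the log2 scale, relative to the 75th percentile of each array's signal, and come from the brightest probe of each gene. A positive difference means a higher level in o-nitroanisole. Its standard error (SE) is the moderated one of limma's fit over 32428 features, those detected above background on all 3 arrays of either group. A feature is a gene or an unnamed probe. All 10 Klf genes passed that filter, and all were well above background on all 6 arrays. Every one of the 10 differences lay above 0, from 0.01 for Klf3 to 0.86 for Klf5, with a median of 0.22, but Klf3 (-0.03) and Klf15 (-0.02) fell below 0 with quantile scaling. Over all features, 56.0% of differences lay above 0 and the median was 0.03. For 4 genes, Klf5, Klf9, Klf10 and Klf13, each o-nitroanisole rat lay above each corn oil rat, and the groups of 17.6% of all features stood apart in this direction (9.56% in the lower and 27.2% in either direction). That number was 7 without corn oil rat 3, when Klf2, Klf4 and Klf6 joined and the share of all features was 21.5% in this direction (35.4% in either). It was 2 when all tested probes of a gene were averaged, Klf5 and Klf9, with 17% of all features (26.8% in either direction). None of the 10 passed an adjusted p of 0.05 in limma's default fit, where 0 of 32428 features passed (0%). At an unadjusted p under 0.05 there were 4 members (18.9% of all features, 11.8% higher and 7.12% lower). When limma's moderation was made robust and given a trend with signal, called the trend and robust fit below, 0 members and 522 features passed (1.61%). Because the contrast chose the family, nothing is read from these shares.

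**Figure D1:**
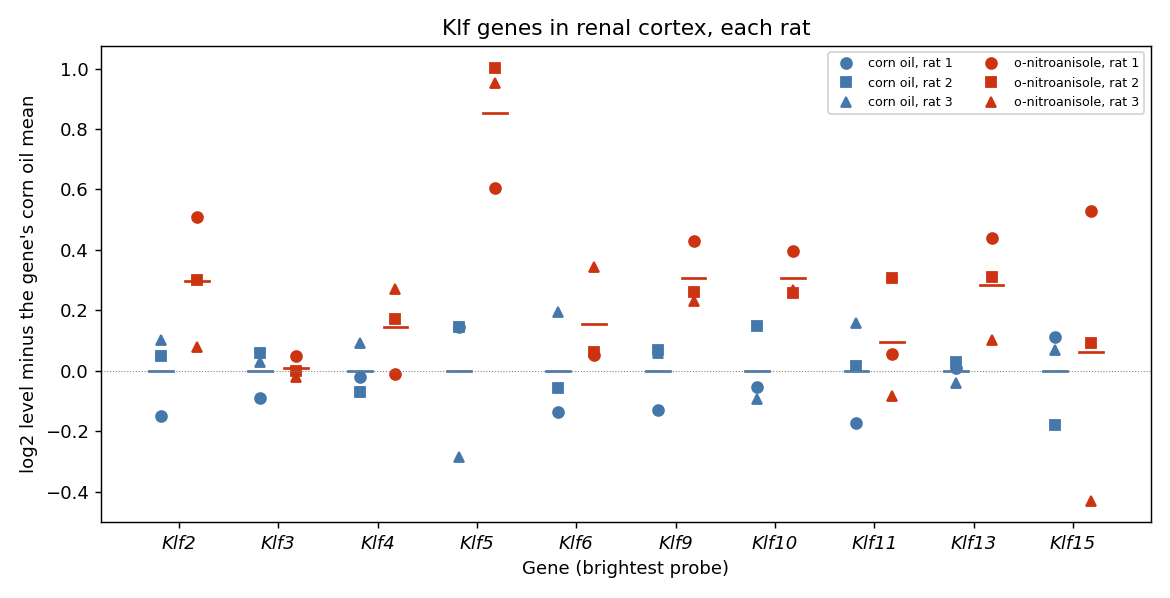
Log2 level of each Klf gene on each array minus that gene's corn oil mean, with blue symbols for corn oil rats, red symbols for o-nitroanisole rats, 1 symbol shape per replicate number and bars at the group means; coinciding values overlie each other. Klf5 stands highest at 0.86 above the corn oil mean, the Klf3 groups coincide (0.01, and -0.03 with quantile scaling), and the Klf15 rats on o-nitroanisole are the most spread.

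Klf5 had the largest difference of the family. Its levels were -4.14, -4.14 and -4.57 in the corn oil rats and -3.68, -3.28 and -3.33 in the o-nitroanisole rats. The groups were separated by 0.46 log2, and the difference was 0.86 ± 0.17 (SE, n = 3 per group), a 1.81-fold higher level. In size it exceeded 97.2% of all features. The probe is dim: the o-nitroanisole rats read 76, 93.5 and 89.7 signal units and corn oil rat 1 read 53.4, where the lowest signal well above background was between 11.31 and 20.47 units per array. With normexp background correction, whose added offset draws dim probes toward no change, the difference was 0.57. The other Klf5 probe was well above background on 0 corn oil and 2 o-nitroanisole arrays and was not tested. Its difference was 0.28, and its groups overlapped.

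Markers of the collecting duct, a segment where Klf5 is expressed, were also higher in the same rats. Of 10 such markers tested, 8 had o-nitroanisole rats that all lay above the corn oil rats, as against 17.6% of all features (27.2% in either direction). Their summed signal, in multiples of the array's 75th percentile, was 231 to 258 in corn oil and 289 to 318 in o-nitroanisole. Most of that sum is Aqp2 and Atp6v1g3. The Aqp2 difference was 0.26 on its brightest probe, with groups 0.03 apart, and 0.03 on its other probe. Aqp4, a basolateral water channel, differed by 0.81 ± 0.11 (adjusted p = 0.0880 in limma's default fit, 0.0333 in the trend and robust fit), but its 4 tested probes ranged from 0.06 to 0.84 and their average gave 0.50. Aqp3 stood at 0.00 and Avpr2 at -0.27. None of the 10 markers was at background, and their part in the Klf5 difference was not tested. In tissue RNA, a change in the number of cells of a type and a change in RNA per cell cannot be told apart.

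Klf9 is the BTEB1 protein, first described as binding an element of the rat Cyp1a1 promoter. Its levels were 3.50, 3.70 and 3.69 in corn oil and 4.06, 3.89 and 3.86 in o-nitroanisole. The groups were separated by 0.17, and the difference was 0.31 ± 0.09, or 1.24-fold. On the dimmer Klf9 probe the difference was 0.20 ± 0.13 and the groups overlapped. Cyp1a1 itself was dim: 0 corn oil arrays and 3 o-nitroanisole arrays detected it above background. Its mean log2 levels were -3.09 in o-nitroanisole and -6.90 in corn oil. As a bound, the corn oil values were raised to the lowest signal well above background on their array, which gave a 7.30-fold higher level in o-nitroanisole. Under normexp, whose offset draws dim probes toward no change, Cyp1a1 differed by less, at 1.43 log2. It entered the fit only through the o-nitroanisole arrays, where it was high, so its adjusted p in limma's default fit (0.0820, and 0.260 with no filter on dim probes) and in the trend and robust fit (0.0325) is no support for a difference.

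Klf10 and Klf11 are closely related repressors that recruit Sin3a and follow transforming growth factor beta. Klf10 had levels of 2.07, 2.27 and 2.03 in corn oil and 2.52, 2.38 and 2.39 in o-nitroanisole. The groups were 0.11 apart, and the difference was 0.30 ± 0.09, a 1.23-fold higher level. Its second probe gave 0.21 ± 0.14 with overlapping groups. Klf11 stood at 0.75, 0.94 and 1.08 in corn oil and at 0.98, 1.23 and 0.84 in o-nitroanisole. The groups overlapped, and the difference of 0.09 ± 0.13 was smaller than its SE, with -0.04 ± 0.15 on the second probe and -0.02 to 0.18 on leaving out 1 array.

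Klf13, a factor known for driving Ccl5 in T cells, had tight corn oil levels of 0.86, 0.88 and 0.81 and o-nitroanisole levels of 1.29, 1.16 and 0.95. The nearest rats of the groups were 0.07 apart, and the difference was 0.28 ± 0.10. The second Klf13 probe gave 0.18 ± 0.15 and its groups overlapped, with o-nitroanisole rat 3 among the corn oil rats.

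Klf2, which keeps endothelium quiescent, had levels of -1.60, -1.40 and -1.35 in corn oil and -0.94, -1.15 and -1.37 in o-nitroanisole. Only o-nitroanisole rat 3 lay inside the corn oil range, and the difference was 0.30 ± 0.13. It was 0.19 without o-nitroanisole rat 1 and 0.17 under normexp. Klf4, of endothelium and differentiating epithelium, stood at -0.25, -0.30 and -0.14 in corn oil and -0.24, -0.06 and 0.04 in o-nitroanisole, a difference of 0.14 ± 0.09 with overlapping groups (0.08 without o-nitroanisole rat 3, 0.22 without o-nitroanisole rat 1). Beside them, the 8 endothelial markers tested had a median difference of 0.06, with 5 above 0 and 3 below. Only Kdr had groups that did not overlap, with a gap of 0.00 (17.6% of all features stood apart in this direction). The summed signal of the 8 was 63.3 to 78.9 in corn oil and 80 to 84.2 in o-nitroanisole. Most of that sum is Plvap, whose groups overlapped, and Kdr. No endothelial marker tested was at background, and the part of endothelial RNA in these values was not tested.

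Klf6, an injury-responsive factor, read 2.74, 2.82 and 3.07 in corn oil and 2.93, 2.94 and 3.22 in o-nitroanisole. The groups overlapped at a difference of 0.15 ± 0.12, and the other probes gave 0.12 ± 0.19 and 0.06 ± 0.14. Without corn oil rat 1 the Klf6 value was 0.09, without corn oil rat 3 0.25 and without o-nitroanisole rat 3 0.06. Klf3 was the flattest member, at 2.15, 2.30 and 2.27 in corn oil and 2.29, 2.24 and 2.22 in o-nitroanisole. Its 3 probes each gave a difference of 0.01, the brightest with an SE of 0.07. Under normexp the Klf3 value was -0.11 ± 0.07.

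**Figure D2:**
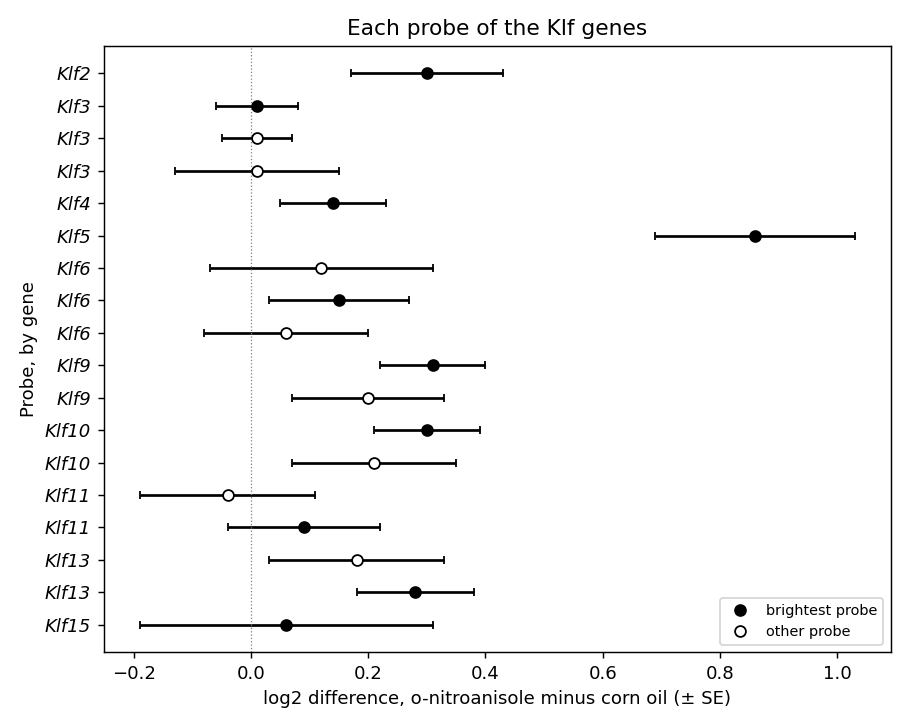
Log2 difference between o-nitroanisole and corn oil, with its SE as the bar, for each of the 18 tested probes of the Klf genes, with the brightest probe of a gene as a filled symbol. The Klf9, Klf10 and Klf13 probes agree in sign but the dimmer one of each gene is nearer to 0, and the 3 Klf3 probes all lie at 0.01 (the brightest at -0.03 with quantile scaling).

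Klf15, enriched in kidney, was the most variable member between rats. It stood at 4.09, 3.80 and 4.05 in corn oil and at 4.51, 4.07 and 3.55 in o-nitroanisole, so that the o-nitroanisole group held both the highest and the lowest rat. The SD among corn oil rats was 0.16 and that among o-nitroanisole rats 0.48, and the within-group SD of 0.36 was at or above that of 88% of features. The mean difference of 0.06 ± 0.25 was -0.17 without o-nitroanisole rat 1 and 0.31 without o-nitroanisole rat 3.

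The order of the o-nitroanisole rats was also read in genes of corticosteroid signalling. Of 13 such genes tested, 9 were highest in o-nitroanisole rat 1 and lowest in rat 3 of that group, as against 15.6% of all features, and 0 had the mirror order (19.7% of all features). Fkbp5, a chaperone that dampens the glucocorticoid receptor, read 3.52, 3.17 and 2.57 in these rats, and 3.34, 2.78 and 2.60 in the corn oil rats, so it varied between the corn oil rats too. Tsc22d3, the glucocorticoid-induced leucine zipper, read 2.87, 2.44 and 1.90 in the o-nitroanisole rats. Sgk1, the kinase through which aldosterone acts on sodium transport, read 3.11, 2.04 and 1.31, and Per1 -1.30, -1.98 and -2.52. Among the Klf genes, Klf2, Klf3, Klf9, Klf13 and Klf15 had this order and Klf4 and Klf6 the mirror order, although the Klf3 rats were within 0.07 of each other. Of 9 Klf15 targets tested, 1 had this order and 4 the mirror order. The order was noticed in the data, rests on 3 rats and was not tested.

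**Figure D3:**
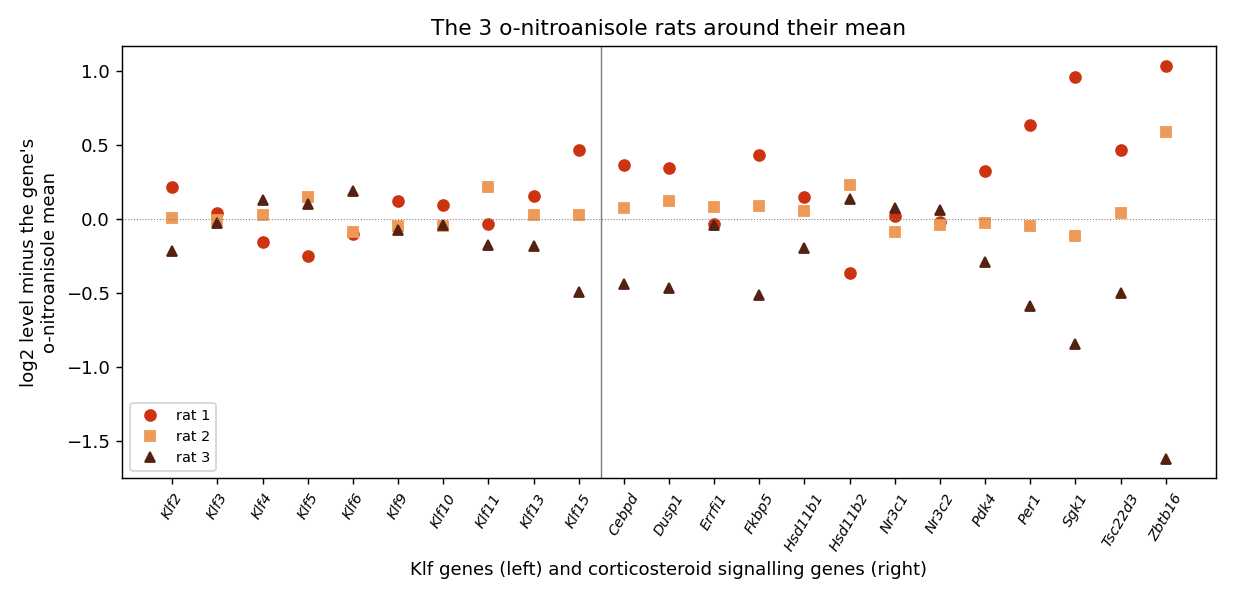
Log2 level of each of the 3 o-nitroanisole rats minus the mean of that group, for the 10 Klf genes (left of the line) and 13 genes of corticosteroid signalling (right), with 1 symbol per rat. Rat 1 is highest and rat 3 lowest for Klf15, Fkbp5, Tsc22d3, Sgk1 and Per1, and for 9 of the 13 genes on the right.

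The receptor for glucocorticoids, Nr3c1, differed by -0.04 ± 0.09 between the groups. In the corticosteroid list 0 of 13 genes passed in either fit, with 9 differences above 0 and a median of 0.15. Fkbp5 lay at 0.18 ± 0.30, Tsc22d3 at 0.42 ± 0.25, Per1 at -0.22 ± 0.33 and Sgk1, the largest in size, at -0.77 ± 0.46. The Tsc22d3 value was 0.18 without o-nitroanisole rat 1 and 0.67 without o-nitroanisole rat 3. The Sgk1 value was -1.25 without o-nitroanisole rat 1 and -0.35 without o-nitroanisole rat 3.

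Other members of the wider family gave 7 tested genes of 16 listed. On their brightest probes all 7 differences lay above 0, as against 56.0% of all features, with a median of 0.36. Sp7, a zinc finger factor of bone formation, had levels of -3.06, -2.97 and -3.01 in corn oil and -2.37, -1.93 and -2.05 in o-nitroanisole. Its groups were far apart, at 0.90 ± 0.12 (0.60 under normexp, adjusted p = 0.0880 in limma's default fit, 0.0383 in the trend and robust fit), and this was the one gene of the list to pass, in the second fit only. Klf1, the erythroid member, read 35.1, 33.1 and 34.7 signal units in corn oil and 67.9, 48.1 and 48.8 in o-nitroanisole, a dim probe, with a difference of 0.75 ± 0.13 (0.33 under normexp) that passed in neither fit. The 5 red blood cell markers tested, among them Ahsp and Alas2, were all higher without overlap, as against 17.6% of all features. Their summed signals were 168 to 194 in corn oil and 262 to 313 in o-nitroanisole. Most of that sum is Hbb, with mean log2 levels of 7.43 in corn oil and 8.10 in o-nitroanisole. The part of these markers in the Klf1 value was not tested. One of the 5, Slc4a1, is also among the collecting duct markers. Klf16, a Sin3a-binding member, differed by 0.36 ± 0.08, while Sp1, the ubiquitous relative, stood at 0.04 ± 0.06. The 5 tested Sp1 probes ranged from -0.20 to 0.04.

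**Figure D4:**
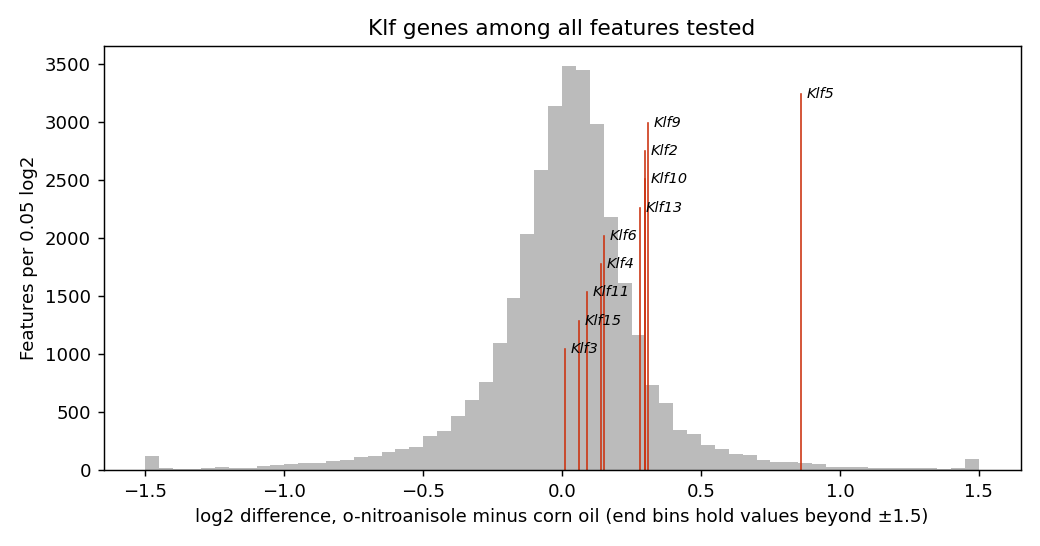
Histogram of the log2 difference (o-nitroanisole minus corn oil) over all 32428 features, with a labelled line at each Klf gene; line heights only separate the names, and the end bins hold all values beyond the axis. Klf5 at 0.86 lies in the upper tail, Klf2, Klf9, Klf10 and Klf13 between 0.28 and 0.31, and the other 5 genes in the body of the distribution (Klf3 and Klf15 below 0 with quantile scaling).

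Daily clock genes were read because Klf9, Klf10 and Klf15 are clock outputs. The hour of sampling is not given in the sources used here. Of 14 tested, 0 passed in either fit, 10 differences lay above 0 and the median was 0.28. Ciart, a repressor of the clock, had the largest difference at 2.14 ± 0.55 (1.45 under normexp), the output factor Dbp lay at 0.83 ± 0.23 and the activator Bmal1 at -1.42 ± 0.42. Of the 14 immediate early genes tested, 12 lay above 0 with a median of 0.25. Atf3 at 0.95 ± 0.15 and Ier3 at 0.36 ± 0.06 passed the trend and robust fit (adjusted p = 0.0393 and 0.0417) and missed the default limma threshold (0.0961 and 0.105). Fos lay at 1.01 ± 0.17 (0.50 under normexp).

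Among lists of signals upstream of the family, those of transforming growth factor beta and MEK5-ERK5-MEF2 had medians near 0. The corticosteroid and clock lists above had medians of 0.15 and 0.28, but members of each went both ways. Their differences ran from -0.77 to 0.42 in the corticosteroid list and from -1.42 to 2.14 in the clock list. In the transforming growth factor beta list 0 of 10 genes passed in either fit, with a median of -0.02. Tgfb1 stood at 0.00 ± 0.07 and its inhibitor Smad7 at 0.02 ± 0.16. Tgfb2 lay at -1.41 ± 0.61, with a value of -2.10 without corn oil rat 1 and -0.90 without corn oil rat 3. In the MEK5-ERK5-MEF2 pathway, which induces Klf2 and Klf4 under flow, 0 of 6 passed in either fit, with a median of 0.05, and the kinase Map3k2 lay at 0.27 ± 0.11 with another probe at -0.10 (0.06 with probes averaged, 0.16 without corn oil rat 2). Among cofactors and ubiquitin ligases of Klf proteins 0 of 8 passed in either fit, with a median of -0.09. Wwp1, a ligase that degrades Klf5, had the largest difference at -0.33 ± 0.14, and the Klf3 partner Ctbp1 stood at 0.05 ± 0.06.

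Known targets of the factors were mixed. For Klf2 and Klf4, 0 of 10 targets passed in either fit, with a median of 0.07. Nos3, the endothelial nitric oxide synthase, lay at 0.31 ± 0.13 (0.20 without corn oil rat 1). Ccn3 had the largest value at 0.37 ± 0.26, which was 0.12 under normexp, below Nos3 at 0.29, and 0.16 to 0.58 on leaving out 1 array. Among 9 targets of Klf15 tested, 1 passed the trend and robust fit and 0 the default fit. It was Bcat2, which starts branched-chain amino acid breakdown, with levels of 1.73, 1.84 and 1.81 in corn oil and 2.33, 2.60 and 2.40 in o-nitroanisole, a difference of 0.65 ± 0.09 (adjusted p = 0.0880 in limma's default fit, 0.0295 in the trend and robust fit). Prodh, a proline-degrading enzyme, lay at 0.63 ± 0.18 and Podxl of podocytes at 0.39 ± 0.10. Podocyte markers as a whole had a median of 0.07 over 6 genes and a summed signal of 32.1 to 36.7 in corn oil and 35 to 39.9 in o-nitroanisole. Among 9 targets of the other factors, none but Cyp1a1 passed the trend and robust fit, and the filter on dim probes let Cyp1a1 in through 1 group. The median of these 9 was 0.02, with 6 differences above 0 and 3 below. Maob, a Klf11 target, lay at 0.70 ± 0.15 (0.50 on its other probe), and Ccl5, the Klf13 target, at -0.26 ± 0.25. On leaving out any 1 array, 0 of the 95 listed genes passed the trend and robust fit.

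**Figure D5:**
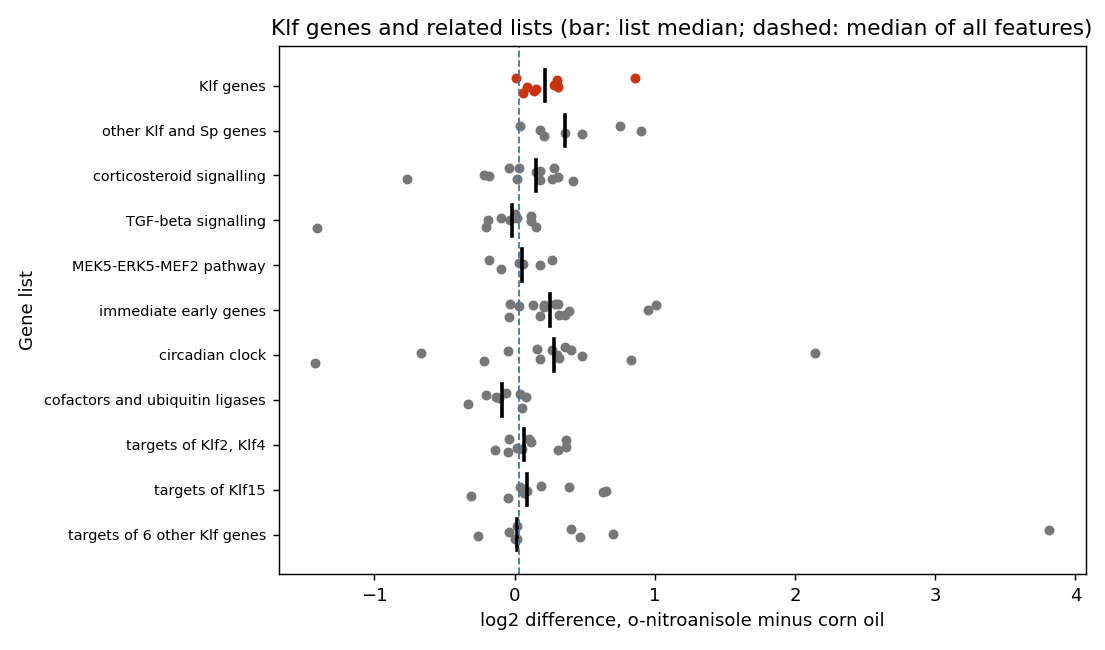
Log2 difference between o-nitroanisole and corn oil for the 10 Klf genes (red) and each tested gene of 10 related lists (grey), with a black bar at the median of each list and a dashed line at the median of all features (0.03); the point farthest right is Cyp1a1, whose corn oil level is only a bound. The Klf median is 0.22, and the list medians run from -0.09 for cofactors and ubiquitin ligases to 0.36 for the other Klf and Sp genes.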

How the data were processed

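Scanner files of 6 arrays were read. Per the file headers, the deposited spot intensities come from Agilent Feature Extraction 10.7.1.1 on 1-colour arrays designed on build rn4, background-subtracted and detrended within the array, and not scaled between arrays. As a linear ratio, the deposited value table gives the processed signal over the array's 75th percentile. Its columns for corn oil equal scanner files of that group under other numbers (within 1%), so corn oil numbers are those of the scanner files and remain unsettled. Levels were log2 processed signal minus that percentile over non-control probes, with outlier spots set to missing and 84 spike-in probes left out. Probes were named by RefSeq accession (27460 of 33356 accessions matched, gene table GRCr8). The brightest probe stood for each gene.

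The comparison used R 4.3.3 and limma 3.58.1 (default eBayes, Benjamini-Hochberg over 32428 features, threshold 0.05), and p-values in the text are from it unless the trend and robust fit (eBayes with trend and robust moderation) is named. The fit was tested on simulated data. Array number, 3 per group, limits precision. Plots were drawn with matplotlib 3.10.9 (pandas 2.3.3, Python 3.11.15). The Klf genes and all lists were chosen with earlier results of these data known. The named genes were the 10 Klf genes and, per list, members past the threshold, otherwise past it in the trend and robust fit, otherwise the member with the largest difference, with Cyp1a1, Fkbp5, Tsc22d3, Per1 and Dbp in any case; other genes were chosen after their values were seen. Some values for single genes are not reported here. Of 118 listed genes, 104 had a named probe and 95 were tested. Protein sequences were not used here.

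Alternatives were normexp on the median signal (offset 50), quantile or median scaling, other dim-probe filters, outlier spots kept, probes averaged, the value table, trend and robust moderation, array weights, the replicate block and leaving out 1 array. Replicate numbers were not taken to pair rats: the deviations of same-numbered arrays correlated at 0.091, 0.058 and 0.026, under the 0.1 set for pairing.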

Additional observations from a re-analysis of the deposited data

How the results depend on the processing

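Added after seeing the data were the single-probe values and the repeat of trend and robust moderation without each array. The count of features past the threshold was 0 in the default limma fit and 115 under normexp, 522 with trend and robust moderation, and 0 to 4 on leaving out 1 array, the 4 without corn oil replicate 3. With trend and robust moderation it was 6 without corn oil replicate 1, 62 without corn oil replicate 2, 69 without corn oil replicate 3, 35 without o-nitroanisole replicate 1, 0 without replicate 2 and 24 without replicate 3. Related genes past the threshold numbered 0, or 5 with trend and robust moderation. Klf genes with separate groups numbered 4, or 2 with probes averaged and 4 to 7 on leaving out 1 array, where 35.4% to 39.3% of all features stood apart (21.5% to 24.4% higher), against 27.2% (17.6% higher) with all arrays. The replicate block called 0 features, left all 10 Klf differences above 0 and changed no call. Klf3 was -0.11 and Klf5 0.57 under normexp. On leaving out 1 array, Klf11 was -0.02 without o-nitroanisole replicate 2 and Klf3 -0.03 without corn oil replicate 1. Over these fits Fkbp5 ranged from -0.03 (without o-nitroanisole replicate 1) to 0.44 and Per1 from -0.53 to 0.07 (without o-nitroanisole replicate 3). For these changes the cause was not tested, except that by construction the normexp offset draws dim probes toward no change. The Klf genes have no call, and 9 of their 168 values under alternatives lay below 0, all of Klf3, Klf11 or Klf15. Of 407 values of other named genes, 399 kept their direction and side of the threshold, 6 newly passed with trend and robust moderation and 2 reversed. Signal over background limits Klf5, Klf1, Cyp1a1, Fos, Ccn3 and Ciart, among others.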
